A study of Rattus norvegicus with 12 samples.

Results

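RNA of epididymal fat, a visceral white fat depot, was measured in 12 male Sprague-Dawley rats, an outbred laboratory strain. Every rat had its own Affymetrix Rat Gene 1.0 ST array. The rats were 4 fed, 4 fasted until phase 2 and 4 fasted until phase 3, with no other treatment named and no age in the labels used here. In phase 2 of a long fast the animal draws mainly on its fat, and in phase 3, when fat runs low, it draws more on protein. The genes followed here are a list of 26 genes of sterol synthesis and of its control by the transcription factor SREBP2. They were chosen by gene symbol in the platform annotation, and the brightest probe set by its mean over the 12 arrays stood for a gene. Of the 26 listed, 25 were measured among the 14506 genes tested, and Hmgcs1 was not analysed here.

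Cells make cholesterol from acetyl-CoA in the cytosol and the endoplasmic reticulum. Acetyl-CoA is turned into mevalonate, mevalonate into isoprenoid units, these into farnesyl diphosphate, and farnesyl diphosphate into squalene, which is folded to lanosterol and trimmed to cholesterol. Farnesyl diphosphate also feeds side branches to prenyl groups, dolichol and ubiquinone. SREBP2, the product of Srebf2, is held in the endoplasmic reticulum with its escort SCAP by the INSIG proteins while sterols are plentiful. When sterols are short, SCAP carries it to the Golgi, where it is cut, and the freed part enters the nucleus and switches on the genes of the pathway, with Srebf2 and Insig1 among them. White fat stores free cholesterol in its droplets and is known more for storing sterol than for making it.

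The tissue label was checked against marker genes. All 12 adipocyte markers lay above background in fed and phase 2 rats, and all but Lep in phase 3 rats, with background set at the 95th percentile of the 53 olfactory receptor genes in each group. Of 10 hepatocyte markers, measured because the extraction protocol speaks of liver, 6 lay below that level in fed and in phase 2 rats and 7 in phase 3 rats. Over all 29215 probe sets the array medians lay between 6.026 and 6.132, and the ranges of the 3 groups overlapped. Over the 14506 tested genes alone the array medians were lower in fasted rats. They were on average 6.975 among fed rats, 6.91 among phase 2 rats and 6.82 among phase 3 rats. Against fed rats these medians differ by -0.065 and -0.155. The median difference of single genes was not lower, at 0.01 in phase 2 and 0.05 in phase 3 against fed rats. Centring, where it is named below, sets the array medians of the tested genes equal and so raises the fasted rats against the fed rats. Over all genes it moved the calls from 3649 to 3825 in phase 2 and from 6589 to 8785 in phase 3 against fed rats. Between the phases it moved them from 4046 to 4798. The shares of all genes given below are those without centring. On the third principal component, with 6.6% of the variance, 2 of the phase 3 rats lay far from all others, rat 2 at 22.65 and rat 3 at -24.88, and counts are given below with and without them. Levels are the deposited log2 values. A difference is one group mean minus another on that log2 scale, with 4 rats in each group, given with its standard error (SE), and a gene was called when its Benjamini-Hochberg adjusted p over all 14506 genes was under 0.05 in limma. All 25 members lay above background in all 3 groups, the lowest group mean being 6.08 for Tm7sf2 in phase 2 rats.

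In phase 2 of fasting the sterol pathway was lower along nearly its whole length. Of the 25 members, 20 fell and 1 rose in phase 2 against fed rats, whereas 15.5% of all genes were called lower and 9.66% higher. The median difference over the members was -0.80, against 0.01 over all genes. By at least 2-fold 11 members fell and none rose, and of all genes 1.83% fell and 1.15% rose by as much. The values of the 4 phase 2 rats lay wholly below those of the 4 fed rats for 21 members and wholly above for 2, and over all genes this held for 18.4% and 12.6%. Because whole tissue was measured, fewer cells of a type and less RNA per cell cannot be told apart. The 12 adipocyte markers had a summed log2 level of 15.78 to 15.85 in phase 2 rats and 15.74 to 15.78 in fed rats, and 2 of them were called lower and 1 higher. The 7 markers of proliferating cells were all called lower (median difference -1.44), and 6 of them lay near background in phase 2 rats. Of 8 fibroblast and progenitor markers 4 were lower and none higher (median -0.62), and 4 of 5 mesothelium markers were lower (median -0.88), while all 6 smooth muscle markers (median 1.27) and 5 of 7 endothelium markers (median 0.53) were higher. Their part in the differences of the sterol genes was not tested.

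**Figure D1:**
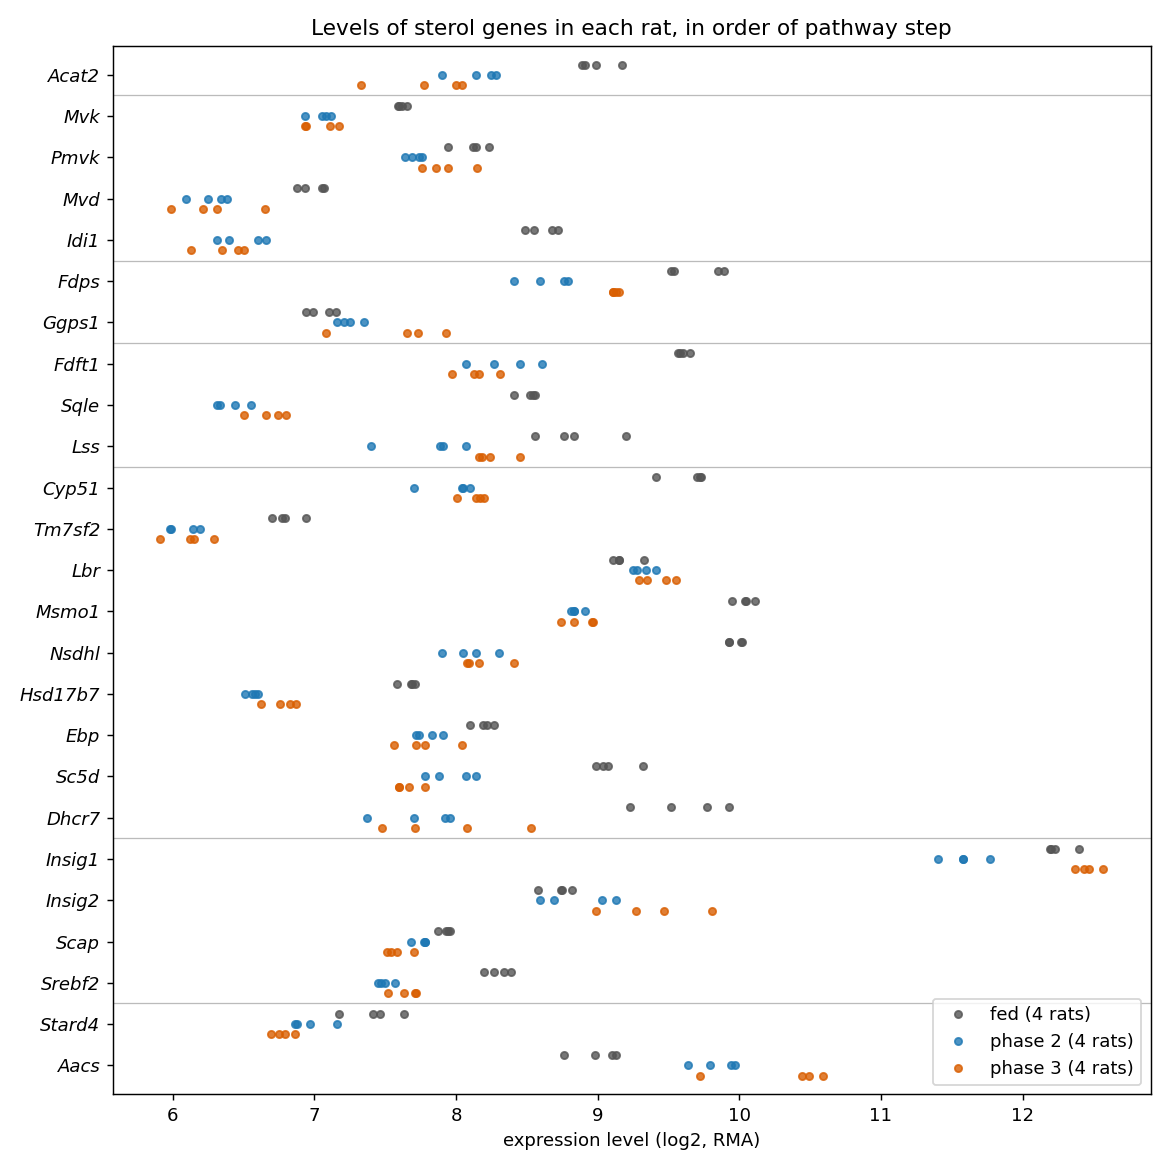
Expression level (log2, RMA) of the 25 measured members in each of the 12 rats, 1 point per rat, with fed above phase 2 above phase 3 rats within each gene and grey lines between the steps of the pathway. For 21 members the 4 phase 2 rats lie wholly below the 4 fed rats, while Aacs at the bottom is higher in the fasted rats.

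At the entry to the pathway, Acat2, the cytosolic thiolase that joins acetyl-CoA units, had levels of 8.14, 7.90, 8.25 and 8.28 in the phase 2 rats, against 8.89, 8.99, 8.91 and 9.17 in the fed rats. All phase 2 rats were below all fed rats, and the gene fell by 0.85 ± 0.143 (SE, 1.8-fold, adjusted p = 0.000585). The following 4 enzymes carry mevalonate to the isoprenoid units, and all 4 fell. Idi1, the isomerase that makes the reactive isoprenoid unit, had 6.40, 6.31, 6.66 and 6.60 in the phase 2 rats, against 8.68, 8.55, 8.49 and 8.72 in the fed rats. The gap between the groups was far wider than the range within either, and Idi1 fell by 2.12 ± 0.105 (SE, 4.34-fold, adjusted p = 1.84e-08), the 23rd largest fall of the 14506 genes. The mevalonate kinase gene Mvk fell by 0.57 ± 0.078, the phosphomevalonate kinase gene Pmvk by 0.40 ± 0.0924 and Mvd, the decarboxylase, by 0.72 ± 0.12. Their adjusted p lay between 0.000126 for Mvk and 0.00589 for Pmvk, and none of the 3 overlapped between the groups.

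Of the synthases for the shorter and the longer prenyl chain, at the branch point, Fdps fell and Ggps1 did not pass the test. Fdps, which makes farnesyl diphosphate for sterols and other products, had 8.41, 8.59, 8.76 and 8.79 in the phase 2 rats, against 9.85, 9.54, 9.52 and 9.89 in the fed rats. No rat of one group reached the range of the other, and Fdps fell by 1.06 ± 0.105 (SE, 2.08-fold, adjusted p = 8.31e-06). Ggps1, which lengthens farnesyl to geranylgeranyl diphosphate for protein prenylation and so leaves the sterol line, had 7.21, 7.35, 7.25 and 7.16 in the phase 2 rats, against 7.15, 6.94, 6.99 and 7.10 in the fed rats. Its phase 2 rats lay just above the fed rats, but the difference of 0.20 (95% interval -0.11 to 0.50) did not pass the test (adjusted p = 0.367).

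The enzymes from farnesyl diphosphate to lanosterol all fell by more than 2-fold. Sqle, the squalene epoxidase and a slow step of the pathway, had 6.31, 6.33, 6.55 and 6.44 in the phase 2 rats, against 8.54, 8.52, 8.41 and 8.56 in the fed rats. Each group stayed within a narrow band, and Sqle fell by 2.10 ± 0.0856 (SE, 4.29-fold, adjusted p = 2.37e-09), the smallest adjusted p of all members in this comparison. The squalene synthase gene Fdft1 fell by 1.25 ± 0.109 and the lanosterol synthase gene Lss by 1.02 ± 0.149. Phase 2 rat 4, at 7.40, was the lowest for Lss, and the other phase 2 rats lay between 7.89 and 8.07, all below the fed rats.

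Of the 9 genes that carry lanosterol to cholesterol, 8 fell and Lbr did not pass the test. Nsdhl, a dehydrogenase that helps remove methyl groups from the ring, had 8.14, 7.90, 8.30 and 8.05 in the phase 2 rats, against 9.93, 10.02, 9.93 and 10.01 in the fed rats. Dhcr7, the reductase of a final step, had 7.70, 7.37, 7.96 and 7.92 in the phase 2 rats, against 9.77, 9.93, 9.23 and 9.52 in the fed rats. Both were lower in every phase 2 rat than in any fed rat, and Nsdhl fell by 1.87 ± 0.0979 (SE, 3.66-fold, adjusted p = 3.1e-08) while Dhcr7, with a wider spread, fell by 1.88 ± 0.211 (SE, 3.67-fold, adjusted p = 2.39e-05). The lanosterol demethylase gene Cyp51 fell by 1.67 ± 0.103, the methylsterol oxidase gene Msmo1 by 1.19 ± 0.0754, the desaturase gene Sc5d by 1.14 ± 0.0994 and Hsd17b7, whose product reduces a keto-sterol, by 1.10 ± 0.0744. The sterol isomerase gene Ebp fell least of the 8, by 0.40 ± 0.0963 (adjusted p = 0.0073).

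Tm7sf2 and Lbr both encode reductases that act on the same double bond of the sterol ring, and LBR is also a lamin receptor of the inner nuclear membrane. Tm7sf2 had 5.98, 6.14, 6.19 and 5.99 in the phase 2 rats, against 6.79, 6.94, 6.77 and 6.70 in the fed rats. It fell by 0.72 ± 0.093 (SE, 1.65-fold, adjusted p = 7.27e-05), with no overlap. Lbr had 9.25, 9.28, 9.41 and 9.34 in the phase 2 rats, against 9.11, 9.15, 9.33 and 9.15 in the fed rats. Fed rat 3 lay within the phase 2 range, and the difference of 0.13 (95% interval -0.04 to 0.31) did not pass the test (adjusted p = 0.28).

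Among the control genes, Srebf2 itself had 7.57, 7.50, 7.45 and 7.47 in the phase 2 rats, against 8.39, 8.27, 8.20 and 8.34 in the fed rats. All phase 2 rats were lower, and Srebf2 fell by 0.80 ± 0.0749 (SE, 1.74-fold, adjusted p = 4.7e-06). Insig1, the sterol-responsive retention protein, had 11.40, 11.58, 11.58 and 11.77 in the phase 2 rats, against 12.19, 12.40, 12.23 and 12.20 in the fed rats. It was lower in every phase 2 rat and fell by 0.67 ± 0.0893 (SE, 1.59-fold, adjusted p = 9.67e-05), and its other probe set differed by -0.92 ± 0.107 in the same direction. Insig2, the other retention protein, had 8.69, 8.59, 9.13 and 9.03 in the phase 2 rats, against 8.75, 8.58, 8.82 and 8.74 in the fed rats. These ranges overlapped, and the difference of 0.14 (95% interval -0.20 to 0.48) did not pass the test. Scap, the escort of SREBP2, differed by -0.18 ± 0.0691, with an adjusted p of 0.0796, although its 4 phase 2 rats were all below the fed rats. Without the dimmest 40% of genes its adjusted p was 0.0445.

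Both remaining members lie beside the pathway. Stard4, a carrier of sterol between membranes, had 6.86, 6.88, 7.16 and 6.97 in the phase 2 rats, against 7.46, 7.17, 7.41 and 7.63 in the fed rats, which did not overlap. It fell by 0.45 ± 0.101 (SE, 1.37-fold, adjusted p = 0.00453). Aacs, the cytosolic enzyme that activates the ketone body acetoacetate for lipid and sterol synthesis, was the member that rose, with 9.79, 9.64, 9.94 and 9.97 in the phase 2 rats, against 9.13, 9.10, 8.98 and 8.76 in the fed rats. Its lowest phase 2 rat was above its highest fed rat, and Aacs rose by 0.84 ± 0.162 (SE, 1.79-fold, adjusted p = 0.00159). The 21 calls of this comparison were kept in all 22 alternative settings.

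The start regions of the members were read because most of them moved together. RefSeq's promoter table, on build GRCr8, held a window of 250 bases before and 50 bases after the start for 21 of the 25 measured members. It had none for Pmvk, Fdft1, Sqle and Stard4. The windows were searched on both strands for the letters CCAAT (the NF-Y box), GGGCGG (the GC box), CACGTG (an E-box) and TCACNCCA (close to the sterol regulatory element bound by SREBP proteins), and no match of any of these overlapped a match of another. A CCAAT match lay in 16 of 21 member windows, or 76.2%, and in 37.49% of all 33469 windows. GGGCGG lay in 76.2% of member windows against 33.06% of all windows, CACGTG in 14.3% against 6.42% and TCACNCCA in 9.5% against 3.89%. Among the 12519 windows of genes on the array these shares were 38.2%, 50.08%, 7.76% and 3.67%. CCAAT also lay in the windows of Ggps1, Insig2 and Lbr, which were not called in phase 2. The other windows with CCAAT were those of members that fell. Acat2, Cyp51 and Dhcr7 fell without a CCAAT match in their windows, and Scap and Aacs, which were not called lower, had none either. A link between the matches and the falls was not tested. The 2 member windows with a TCACNCCA match were those of Srebf2 and Msmo1, which are shown for that reason, with the 250 bases before the start, 5′ to 3′ on the gene's own strand. Capitals mark the TCACNCCA match and each CCAAT match, which reads ATTGG where it lies on the other strand. The printed bases lie on the + strand, at chr7:115543057-115543306 for Srebf2 and at chr16:29746863-29747112 for Msmo1. RefSeq's gene span of Srebf2 begins earlier, at 115542774. Its printed bases thus lie inside that span, before a later start that its window uses. The span of Msmo1 begins at 29747113, right after its printed bases.
Srebf2: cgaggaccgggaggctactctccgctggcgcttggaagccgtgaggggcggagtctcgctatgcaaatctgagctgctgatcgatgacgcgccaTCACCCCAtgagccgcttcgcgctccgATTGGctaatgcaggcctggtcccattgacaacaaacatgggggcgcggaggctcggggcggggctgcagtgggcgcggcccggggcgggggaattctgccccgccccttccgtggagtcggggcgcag
Msmo1: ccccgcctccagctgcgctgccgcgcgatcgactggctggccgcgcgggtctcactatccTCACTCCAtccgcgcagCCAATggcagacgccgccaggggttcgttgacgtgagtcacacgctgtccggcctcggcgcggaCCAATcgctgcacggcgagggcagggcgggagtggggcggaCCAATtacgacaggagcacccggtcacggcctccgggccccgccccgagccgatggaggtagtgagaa
Counting the base before the start as -1, the TCACNCCA match of Srebf2 begins at -156 and its CCAAT match at -129. In Msmo1 the TCACNCCA match begins at -190 and is followed by CCAAT matches at -173, -109 and -68. A match is a run of letters in this window and was not tested for binding.

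In phase 3 of fasting the pathway was still lower than in fed rats. Of the 25 members, 19 fell and 4 rose in phase 3 against fed rats, where 24.3% of all genes were called lower and 21.1% higher. The median difference was -0.66 over the members and 0.05 over all genes. By at least 2-fold 9 members fell and Aacs rose, against 6.25% and 3.25% of all genes. The rats of the groups did not overlap for 19 lower and 2 higher members, and for 22.7% and 19.2% of all genes. Both fasting phases share the same fed rats, so the comparisons are not independent, and 18 members were called lower in each. With every array centred on its median, 19 members fell and 5 rose, and without phase 3 rats 2 and 3 the counts were 19 and 3. Of the 12 adipocyte markers 11 were lower, with a summed log2 level of 14.67 to 15.28 in phase 3 rats against 15.74 to 15.78 in fed rats and a median difference of -1.46. All 8 fibroblast and progenitor markers were lower (median -2.10), and so were all 7 markers of proliferating cells (median -2.05), which all lay near background. Of 5 mesothelium markers 4 were lower (median -1.47). All 6 smooth muscle markers (median 1.13) and 4 of 7 endothelium markers (median 0.35) were higher. Their part in the differences of the sterol genes was not tested.

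**Figure D2:**
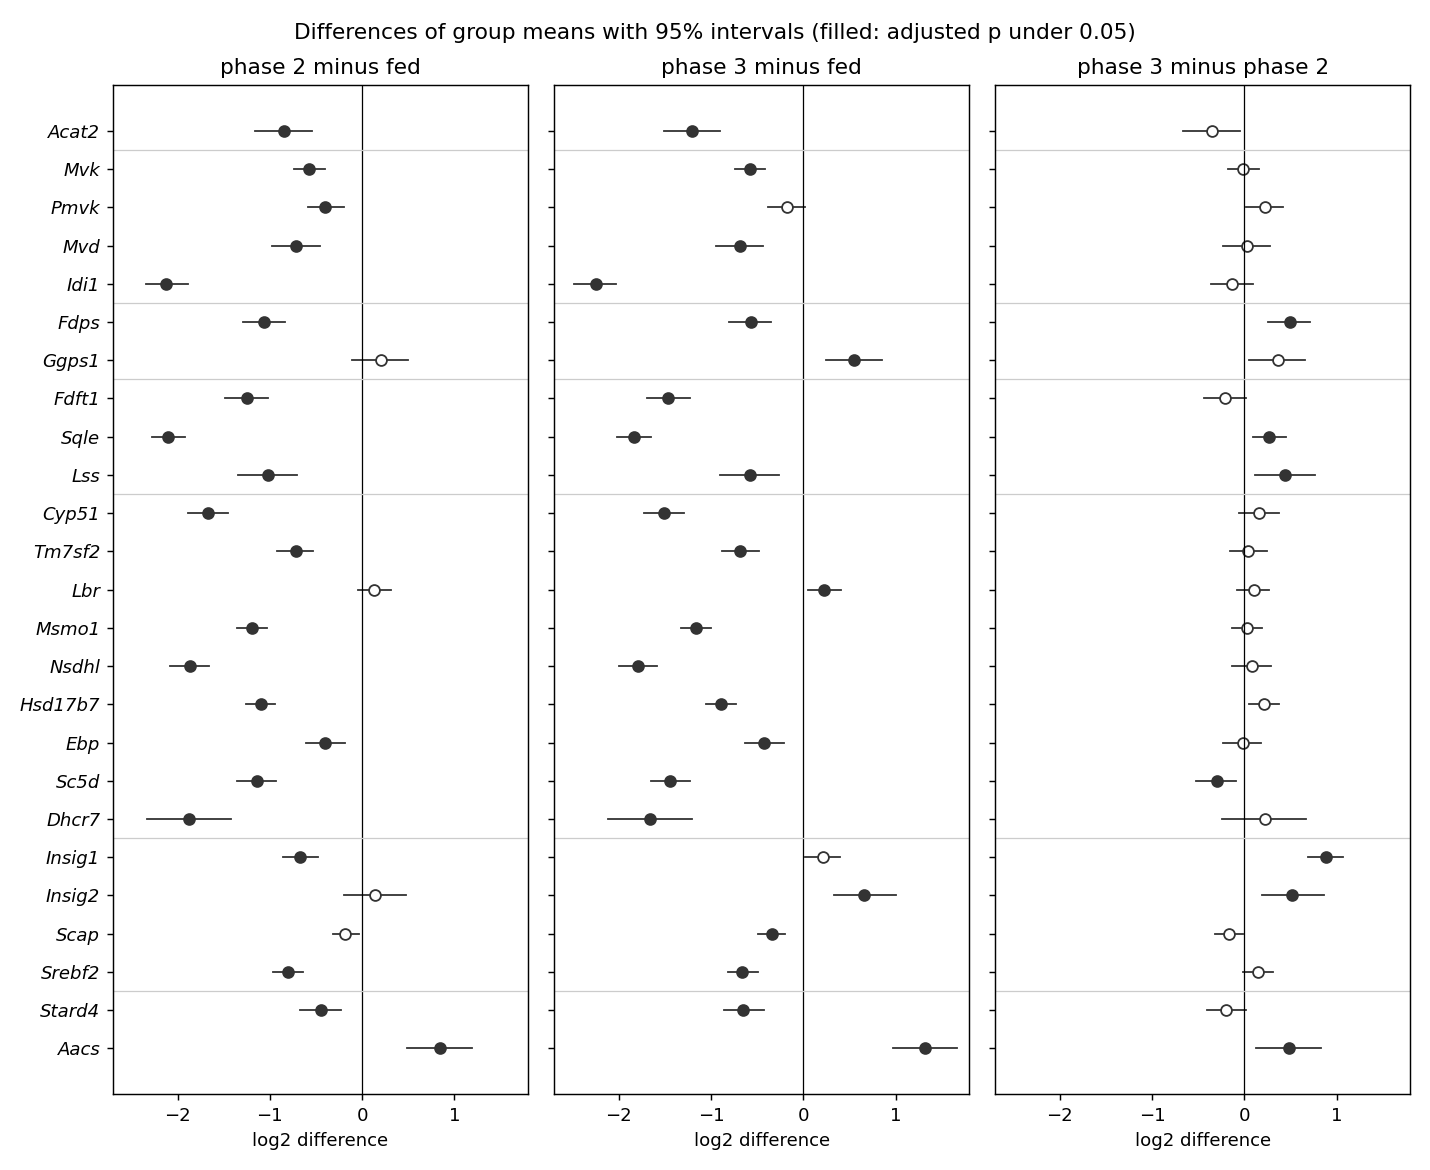
Log2 difference of group means for each member with its 95% interval, for phase 2 minus fed, phase 3 minus fed and phase 3 minus phase 2 rats (n = 4 each), in order of pathway step. Filled points passed an adjusted p of 0.05. Left of 0 lie 20 filled points for phase 2 minus fed and 19 for phase 3 minus fed, whereas phase 3 against phase 2 shows 1 left and 6 right of 0.

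Along the enzymes, Idi1 and Sqle were again among the members furthest from the fed level. Idi1 had 6.35, 6.50, 6.13 and 6.46 in the phase 3 rats, against 8.68, 8.55, 8.49 and 8.72 in the fed rats. It fell by 2.25 ± 0.105 (SE, 4.76-fold, adjusted p = 1.32e-09), and all phase 3 rats were lower than all fed rats. Sqle fell by 1.83 ± 0.0856 (SE, 3.56-fold, adjusted p = 1.32e-09), Nsdhl by 1.79 ± 0.0979, Dhcr7 by 1.66 ± 0.211 and Cyp51 by 1.51 ± 0.103. Acat2 had 8.04, 7.33, 8.00 and 7.77 in the phase 3 rats, all below the fed rats, and fell by 1.20 ± 0.143 (SE, 2.3-fold, adjusted p = 8.4e-06). Among the rest, Fdft1 fell by 1.46, Sc5d by 1.44, Msmo1 by 1.16, Hsd17b7 by 0.89, Mvd by 0.69, Tm7sf2 by 0.68, Mvk by 0.58, Lss by 0.58, Fdps by 0.57 and Ebp by 0.42. Beside the pathway Stard4 fell by 0.65 ± 0.101. The adjusted p of these 11 genes lay between 2.29e-08 for Msmo1 and 0.00568 for Lss. The call of Lss ended when phase 3 rats 2 and 3 were both left out (adjusted p = 0.0552).

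Pmvk had 7.76, 8.15, 7.94 and 7.86 in the phase 3 rats, against 8.23, 7.94, 8.12 and 8.14 in the fed rats. The ranges overlapped, since phase 3 rat 2 lay within the fed range and phase 3 rat 3 at its lower end, and the difference of -0.18 (95% interval -0.38 to 0.02) did not pass the test (adjusted p = 0.134). Without phase 3 rat 2 it was -0.25 with an adjusted p of 0.0314.

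The members that rose in phase 3 were Aacs, Insig2, Ggps1 and Lbr. Aacs had 10.59, 9.72, 10.49 and 10.44 in the phase 3 rats, against 9.13, 9.10, 8.98 and 8.76 in the fed rats. Phase 3 rat 2 was lower than the other phase 3 rats but still above every fed rat, and Aacs rose by 1.32 ± 0.162 (SE, 2.5-fold, adjusted p = 1.14e-05). Insig2 had 9.81, 8.99, 9.47 and 9.27 in the phase 3 rats, against 8.75, 8.58, 8.82 and 8.74 in the fed rats. The groups did not overlap, and Insig2 rose by 0.66 ± 0.158 (SE, 1.58-fold, adjusted p = 0.00314). Ggps1 had 7.73, 7.93, 7.08 and 7.65 in the phase 3 rats, against 7.15, 6.94, 6.99 and 7.10 in the fed rats. Phase 3 rat 3 lay within the fed range and the others above it, and Ggps1 rose by 0.55 ± 0.141 (SE, 1.47-fold, adjusted p = 0.00507). Lbr had 9.29, 9.48, 9.35 and 9.55 in the phase 3 rats, and the lowest of these lay below fed rat 3. It rose by 0.23 ± 0.0825 (SE, 1.17-fold, adjusted p = 0.0347). This call was lost (adjusted p between 0.0743 and 0.106) when fed rat 1, 2 or 4 or phase 3 rat 2 or 4 was left out. It was also lost without phase 3 rats 2 and 3 together (adjusted p = 0.085). A fit of only the fed and phase 3 rats lost it too (adjusted p = 0.0633).

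The control genes moved in both directions in phase 3. Srebf2 had 7.71, 7.52, 7.63 and 7.72 in the phase 3 rats, against 8.39, 8.27, 8.20 and 8.34 in the fed rats. It stayed below the fed rats in every phase 3 rat and fell by 0.66 ± 0.0749 (SE, 1.58-fold, adjusted p = 5.88e-06). Scap had 7.51, 7.54, 7.58 and 7.70 in the phase 3 rats, against 7.94, 7.93, 7.87 and 7.96 in the fed rats, without overlap, and fell by 0.34 ± 0.0691 (SE, 1.27-fold, adjusted p = 0.000894). Insig1 had 12.57, 12.47, 12.37 and 12.43 in the phase 3 rats, against 12.19, 12.40, 12.23 and 12.20 in the fed rats. Fed rat 2 lay within the phase 3 range, and the difference of 0.21 (95% interval 0.02 to 0.40) did not pass the test (adjusted p = 0.0723). It passed with arrays centred on their medians (0.36, adjusted p = 0.00452), with quantile normalisation, with an intensity trend and without fed rat 2 (adjusted p = 0.0423), each time as higher in phase 3.

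Between the phases most members did not pass the test. In phase 3 against phase 2 rats, 6 members rose and 1 fell, against 12.8% and 15.1% of all genes, and 18 were not called. By its brightest probe set no member differed by as much as 2-fold, and of all genes 2.15% fell and 1.45% rose by that much. With shares this small, a list of this length may hold none. The dimmer probe set of Insig1 rose by 1.20. The median difference was 0.10 over the members and 0.03 over all genes. The member counts depended on the scaling, and with arrays centred on their medians 10 members rose and none fell. The added rises there were those of Pmvk, Ggps1, Hsd17b7 and Srebf2, and Sc5d was no longer called. Without phase 3 rats 2 and 3, 5 members rose and none fell, with Ggps1 added and Sqle, Lss and Sc5d lost. In this comparison 11 of 12 adipocyte markers were lower and 1 higher (median -1.26). All 8 fibroblast and progenitor markers were lower (median -0.98), as were 3 of 5 mesothelium markers (median -0.49), and the part of these cells in the differences was not tested.

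**Figure D3:**
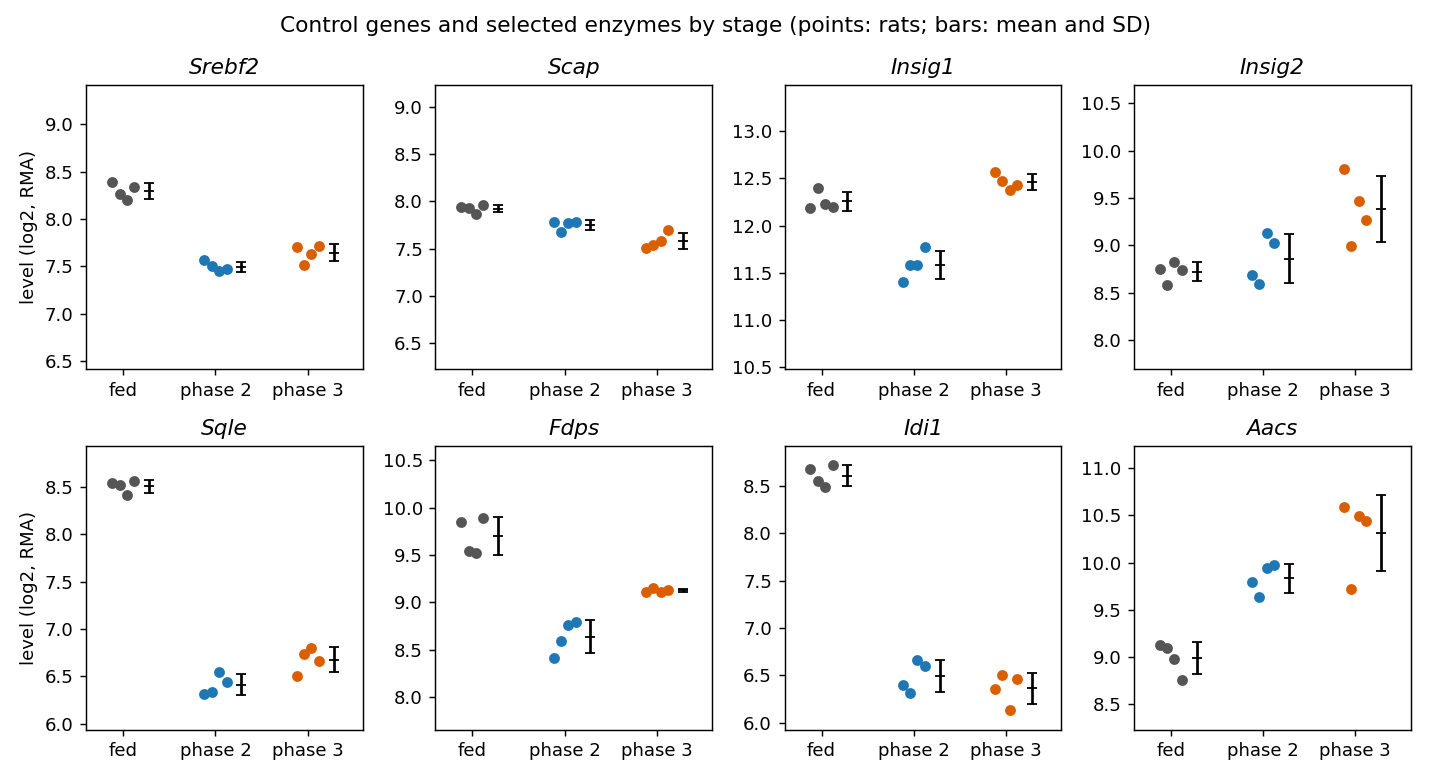
Levels (log2, RMA) of 4 control genes and 4 enzymes in fed, phase 2 and phase 3 rats, with 1 point per rat, the mean and the SD (n = 4) beside the points and the same span of 3 log2 units on each vertical axis. Srebf2, Sqle and Idi1 stay low in both fasting phases, while Insig1 is low in phase 2 rats but not in phase 3 rats. The mean of Aacs is higher at each stage, with phase 3 rat 2 within the phase 2 range.

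Insig1 changed most between the phases, with 12.57, 12.47, 12.37 and 12.43 in the phase 3 rats, against 11.40, 11.58, 11.58 and 11.77 in the phase 2 rats. Every phase 3 rat was above every phase 2 rat, and Insig1 rose by 0.88 ± 0.0893 (SE, 1.84-fold, adjusted p = 7.15e-06). Its dimmer probe set had 11.82, 11.70, 11.56 and 11.66 in the phase 3 rats, against 10.37, 10.30, 10.58 and 10.68 in the phase 2 rats, and rose by 1.20 ± 0.107. Fdps had 9.11, 9.15, 9.11 and 9.13 in the phase 3 rats, against 8.41, 8.59, 8.76 and 8.79 in the phase 2 rats. The phase 3 rats agreed to within a few hundredths and lay above all phase 2 rats, and Fdps rose by 0.49 ± 0.105 (SE, 1.4-fold, adjusted p = 0.00318). The calls of Insig1 and Fdps were kept in all 22 alternative settings.

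The other 5 calls each ended in some settings. Sqle had 6.50, 6.74, 6.80 and 6.66 in the phase 3 rats, against 6.31, 6.33, 6.55 and 6.44 in the phase 2 rats. Phase 3 rat 1 lay within the phase 2 range, and Sqle rose by 0.27 ± 0.0856 (SE, 1.21-fold, adjusted p = 0.0299). That call ended (adjusted p between 0.0518 and 0.0857) when phase 2 rat 1, 2 or 4 or phase 3 rat 2, 3 or 4 was left out. Lss had 8.45, 8.18, 8.16 and 8.24 in the phase 3 rats, against 8.07, 7.91, 7.89 and 7.40 in the phase 2 rats, without overlap, and rose by 0.44 ± 0.149 (SE, 1.36-fold, adjusted p = 0.04). Leaving out any of 8 rats ended its call (adjusted p between 0.0505 and 0.121), namely fed rats 1 and 2, phase 2 rats 2, 3 and 4 and phase 3 rats 1, 2 and 4, and so did a fit with the replicate number as a block (adjusted p = 0.0589). Sc5d, the member that fell, had 7.67, 7.78, 7.60 and 7.60 in the phase 3 rats, against 7.88, 8.07, 7.78 and 8.14 in the phase 2 rats. Phase 3 rat 2 was level with the lowest phase 2 rat, and Sc5d fell by 0.30 ± 0.0994 (SE, 1.23-fold, adjusted p = 0.0352). The fall did not pass when phase 2 rat 2, phase 2 rat 4, phase 3 rat 1, phase 3 rat 3 or phase 3 rat 4 was missing (adjusted p between 0.0573 and 0.109).

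Insig2 had 9.81, 8.99, 9.47 and 9.27 in the phase 3 rats, against 8.69, 8.59, 9.13 and 9.03 in the phase 2 rats. Phase 3 rat 2 lay within the phase 2 range, and Insig2 rose by 0.52 ± 0.158 (SE, 1.44-fold, adjusted p = 0.0226). It did not pass when phase 2 rat 1, phase 2 rat 2 or phase 3 rat 1 was missing (adjusted p between 0.0616 and 0.0734). Aacs had 10.59, 9.72, 10.49 and 10.44 in the phase 3 rats, against 9.79, 9.64, 9.94 and 9.97 in the phase 2 rats. Again phase 3 rat 2 lay within the phase 2 range while the other 3 were above it, and Aacs rose by 0.48 ± 0.162 (SE, 1.39-fold, adjusted p = 0.0395). It did not pass when fed rat 3, any of phase 2 rats 1, 2 and 3 or any of phase 3 rats 1, 3 and 4 was missing (adjusted p between 0.0514 and 0.109). For Srebf2 the difference between the phases was 0.15 (95% interval -0.01 to 0.31, adjusted p = 0.172), and for Idi1 -0.13 (95% interval -0.36 to 0.09).

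The spread among the rats of a group varied from gene to gene. The SD over 4 rats ranged from 0.0281 (Mvk) to 0.305 (Dhcr7) in fed rats, from 0.037 (Hsd17b7) to 0.289 (Lss) in phase 2 rats and from 0.0187 (Fdps) to 0.459 (Dhcr7) in phase 3 rats. The median SD of the members was 0.0998 for fed rats, 0.135 for phase 2 rats and 0.134 for phase 3 rats, against 0.112, 0.126 and 0.167 over all genes. Taken over the members, the median distance of a rat from the fed mean was -0.90 to -0.74 in phase 2 rats and -0.78 to -0.60 in phase 3 rats, and -0.06 to 0.03 in fed rats. The fasted rats of both phases thus lay apart from the fed rats in this summary, and the ranges of the phases overlapped.

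Other genes of sterol handling were counted in separate lists, to be read beside the shares of all genes. Of all genes 9.66% were called higher and 15.5% lower in phase 2, and 21.1% higher and 24.3% lower in phase 3. Of 16 genes of sterol efflux, storage and oxidation, 6 rose and none fell in phase 2 against fed rats (median 0.45), and 8 rose and 1 fell in phase 3 (median 0.45). With centred arrays 9 rose in phase 2 and 10 in phase 3, and none fell. Abca1, which exports cholesterol to apolipoproteins, had 8.18, 8.73, 8.54 and 8.40 in the fed rats, 10.56, 10.31, 10.35 and 9.79 in the phase 2 rats and 11.38, 10.91, 11.26 and 11.23 in the phase 3 rats. The fasted rats of both phases were all above the fed rats, and Abca1 rose by 1.79 ± 0.16 in phase 2 and by 2.73 ± 0.16 in phase 3. Abcg1, a partner exporter to lipoproteins, rose by 1.85 ± 0.146 in phase 2 (SE, 3.61-fold, adjusted p = 1.1e-06). Soat1, which esterifies cholesterol for storage, had 7.76, 8.08, 7.83 and 7.70 in the fed rats, 8.34, 8.41, 8.37 and 8.28 in the phase 2 rats and 10.59, 10.59, 10.19 and 10.45 in the phase 3 rats. The groups did not overlap. It rose by 0.51 ± 0.104 in phase 2 against fed rats and by 2.61 ± 0.104 in phase 3 (SE, 6.12-fold, adjusted p = 3.62e-10). Cyp27a1, a sterol hydroxylase, rose by 2.53 ± 0.154 in phase 3 (SE, 5.76-fold, adjusted p = 1.33e-08), and in phase 2 its difference of 0.39 did not pass the test (adjusted p = 0.0796). Macrophages also carry these genes in quantity, and of 8 macrophage markers 1 rose and 1 fell in phase 2 and 3 rose and 3 fell in phase 3, with a summed log2 level of 12.68 to 12.92 in fed, 12.88 to 13.03 in phase 2 and 12.86 to 13.37 in phase 3 rats. With centred arrays 3 of them rose and 1 fell in phase 3. Their part was not tested.

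Of 15 measured genes of sterol uptake and transport, 4 rose and 3 fell in phase 2, where 9.66% of all genes rose and 15.5% fell. In phase 3, where 21.1% of all genes rose and 24.3% fell, 4 of these genes rose and 4 fell. This balance depended on the scaling, since centred arrays gave 4 rises and 1 fall in phase 2 and 7 rises and 2 falls in phase 3, and quantile normalisation 4 and 1 in phase 2 and 4 and 2 in phase 3. Mylip, a ubiquitin ligase that marks lipoprotein receptors for degradation, had 8.95, 8.70, 8.90 and 8.74 in the phase 2 rats, against 7.26, 7.71, 7.65 and 7.46 in the fed rats. It rose by 1.30 ± 0.104 (SE, 2.47-fold, adjusted p = 1.22e-06) in phase 2 and by 2.14 ± 0.104 in phase 3. Tmem97, a membrane protein of sterol transport, fell by 1.61 ± 0.161 in phase 2 (SE, 3.05-fold, adjusted p = 8.69e-06) and by 1.41 ± 0.161 in phase 3. The non-sterol branch of the mevalonate pathway, with the enzymes of ubiquinone, dolichol and protein prenylation, gave 2 rises and 2 falls among 13 genes in phase 2 (median -0.07) and 2 rises and 6 falls in phase 3 (median -0.20). The excess of falls in phase 3 shrank or turned under rescaling, with 5 rises and 4 falls for centred arrays and 4 rises and 5 falls for quantile normalisation. Over all genes, centring also raised the calls in phase 3 against fed rats, from 6589 to 8785, not counted by direction. Its leading fall was Srd5a3, a reductase of dolichol synthesis, at -0.41 ± 0.0752 in phase 2 and -0.87 ± 0.0752 in phase 3. Of 14 other genes of SREBP processing and of sterol-regulated degradation, 1 rose and 4 fell in phase 2 and 2 rose and 6 fell in phase 3. Here too the phase 2 balance turned, with 3 rises and 2 falls for centred arrays and 4 rises and 2 falls for quantile normalisation, while in phase 3 these gave 4 rises and 5 falls and 3 rises and 6 falls. Sec24d, a coat protein of the vesicles that leave the endoplasmic reticulum, fell by 0.69 ± 0.0875 in phase 2, and Erlin2, a membrane protein of sterol-regulated degradation, fell by 0.79 ± 0.0713 in phase 3 (SE, 1.73-fold, adjusted p = 6.17e-07). A further list, of other enzymes in or beside sterol synthesis, held 13 genes, of which only 6 were measured. Of these, 2 fell and none rose in phase 2, with Cyb5r3, the reductase that passes electrons to the sterol oxidases, at -0.81 ± 0.129. In phase 3, 3 of them fell and 1 rose, and with centred arrays 2 fell and 2 rose.

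Genes of de novo lipogenesis, the synthesis of fatty acids that SREBP1 is known to drive, were counted as a list beside the sterol genes. The list also holds genes of polyunsaturated fatty acid synthesis, of triglyceride assembly and of the lipid droplet. Of the 19 measured genes of this list 18 fell and 1 rose in phase 2 (median -1.37), where 15.5% of all genes fell and 9.66% rose. In phase 3, 17 of them fell and 1 rose (median -1.89), where 24.3% of all genes fell and 21.1% rose. Between the phases 4 of the list rose and 6 fell (median -0.22), where 12.8% of all genes rose and 15.1% fell. Of the sterol members 6 rose and 1 fell (median 0.10), and over all settings 2 to 10 rose and 0 to 2 fell. The difference between the lists was not tested. Fasn, the fatty acid synthase, had 12.55, 12.68, 12.59 and 12.86 in the fed rats, 8.78, 7.97, 7.89 and 8.13 in the phase 2 rats and 7.18, 7.05, 7.32 and 7.43 in the phase 3 rats. Every fasted rat was far below the fed rats, and Fasn fell by 4.48 ± 0.162 in phase 2 (SE, 22.3-fold, adjusted p = 8.01e-10) and fell by 5.43 ± 0.162 in phase 3. Pnpla3, a lipid droplet enzyme known to be switched on by SREBP1, fell by 5.27 ± 0.0865 in phase 2 and fell by 5.38 ± 0.0865 in phase 3, with the smallest adjusted p of the list in both. Its means of 6.17 in phase 2 and 6.05 in phase 3 rats lay little above the background levels of 5.661 and 5.759. These falls may therefore be understated. Scd, the stearoyl-CoA desaturase, fell by 5.20 ± 0.217 in phase 2 and fell by 4.56 ± 0.217 in phase 3. As the exception in both phases, Acacb, which encodes the carboxylase of the mitochondrial surface known to restrain fatty acid oxidation, rose by 3.04 ± 0.17 in phase 2 and by 4.10 ± 0.17 in phase 3. Between the phases Fasn fell by 0.95 ± 0.162 in phase 3 against phase 2 rats (SE, 1.93-fold, adjusted p = 0.00056).

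**Figure D4:**
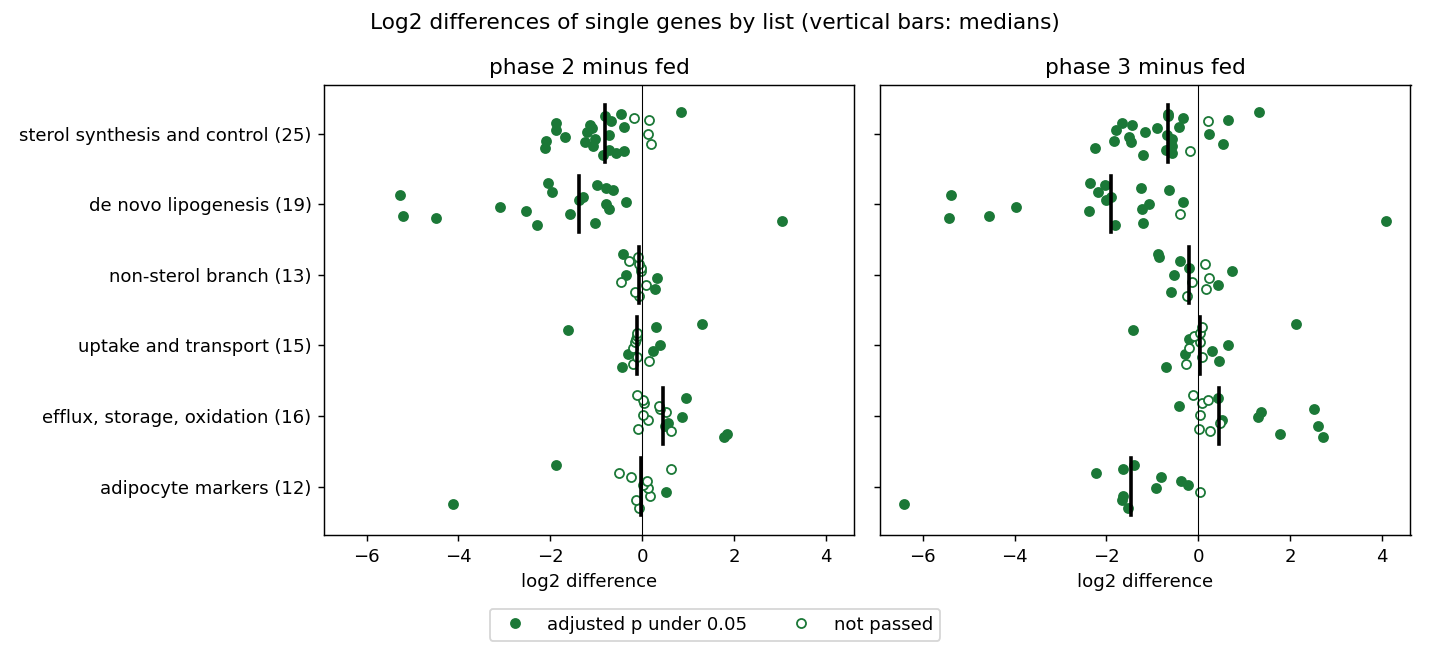
Log2 difference of each gene by list for phase 2 minus fed and phase 3 minus fed rats (n = 4 each), with filled points for an adjusted p under 0.05 and a vertical bar at the median of the list. The sterol members (median -0.80 and -0.66) and the lipogenic genes lie mostly left of 0 in both, the efflux genes (median 0.45 in both) mostly right, and the adipocyte markers have medians of -0.01 in phase 2 and -1.46 in phase 3.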

How the data were processed

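The table deposited by the authors holds a log2 level for every probe set and array. The submitters' processing notes name RMA, GCOS and Affymetrix Expression Console 1.1 as its tools. RMA corrects background, quantile-normalises arrays and summarises probes. Its settings are not stated, and no batch was named. The number of arrays limits the precision. Of 29215 probe sets, 15310 had 1 gene in the platform annotation, 323 several and 13582 none. The brightest probe set stood for each of the 14506 genes, of which 527 had several probe sets. Group means were compared in limma 3.58.1 (R 4.3.3, functions lmFit and eBayes), with all 12 arrays in the fit, no covariates, and p-values adjusted by Benjamini-Hochberg over 14506 genes. Each array is a separate rat per the labels. Same-numbered rats of different groups correlated at -0.155 to 0.188 in their deviations from the group means, so the numbers were not taken as pairs. Members and gene lists were chosen with earlier results of these data known. All members are named; other genes come from the up to 3 called ones with the smallest adjusted p per list in each of the 3 comparisons, and a gene so named may be given in other comparisons too. The steps were tested on simulated data. Alternatives were 3 rescalings of the arrays, an intensity trend with a robust prior, a fit of only the groups compared, a filter on dim genes, the mean of probe sets, every probe set, the replicate number as a block, each rat left out and, chosen after seeing the data, phase 3 rats 2 and 3 left out together. Python 3.11.15, pandas 2.3.3 and matplotlib 3.10.9 made tables and plots.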

Additional observations from a re-analysis of the deposited data

Results flagged for a closer look

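In 5 of the 75 groups of 4 rats, 1 rat stood so far from the other 3 that its gap to the nearest exceeded Dixon's 95% critical value, which chance passes in about 1 group in 20. For Aacs, phase 3 rat 2 was lowest at 9.72, with the others between 10.44 and 10.59. For Cyp51, fed rat 3 was lowest at 9.41, with the others between 9.70 and 9.73, and phase 2 rat 2 was lowest at 7.70, with the others between 8.04 and 8.10. For Scap, phase 2 rat 2 was lowest at 7.68, with the others between 7.77 and 7.78. For Lbr, fed rat 3 was highest at 9.33, with the others between 9.11 and 9.15.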

How the results depend on the processing

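Against fed rats, the 21 calls of phase 2 were kept in all 22 alternatives, and in phase 3 only the calls of Lbr and Lss ended in any, as given above. Leaving out 1 rat gave 20 members lower in phase 2, 19 to 20 lower and 3 to 4 higher in phase 3, and between the phases 0 to 2 lower and 2 to 6 higher. In phase 3 against phase 2, arrays centred on their medians gave 0 lower and 10 higher members, quantile normalisation 0 lower, a fit of only these groups 0 lower and 3 higher, the filter on dim genes 2 lower, every probe set 0 lower, and the fit without phase 3 rats 2 and 3 0 lower. With all probe sets tested, 10322 of 29215 were called in phase 3 against fed, where 6589 of 14506 genes were. Between the phases, differences near 0 changed sign without being called: Mvk to 0.081 (centred), 0.084 (quantile) and 0.028 (cyclic loess), Ebp to 0.067 (centred) and 0.029 (quantile), and Mvd to -0.11 and Ebp to 0.081 without phase 3 rats 2 and 3. Leaving out 1 rat moved Mvk between -0.055 and 0.026, Mvd between -0.091 and 0.13, Ebp between -0.11 and 0.047, Tm7sf2 between -0.014 and 0.11 and Msmo1 between -0.0042 and 0.073. With the replicate number as a block, 20 members were lower and 1 higher in phase 2, 19 and 4 in phase 3, and 1 and 5 between the phases, where the call of Lss ended (adjusted p = 0.0589) and no other member's did. Of 1980 recomputed list counts, 1825 stayed within 1.5 times, and where scaling moved the balance of rises and falls of a list, both are given above.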
